A study of Caenorhabditis elegans with 2 samples.

Results

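The cyclin, cyclin-dependent kinase (CDK) and CDK inhibitor genes described here were the 10 genes cyd-1, cdk-4, cye-1, cdk-2, cki-1, cki-2, fzr-1, cdk-1, cyb-1 and cyb-3, taken by name from 19973 protein-coding genes of Caenorhabditis elegans. Binding of the zinc finger transcription factor LSY-2 was measured by chromatin immunoprecipitation and sequencing (ChIP-seq) in whole L2 larvae of mixed sex, in 1 group with 2 biological replicates. Both replicates were strain OP367, with the allele unc-119(tm4063) III and the transgene wgIs367 that supplies LSY-2 tagged C-terminally with GFP-FLAG. What drives the transgene, and in which cells, is not given in the sources used here, and no untagged group was analysed here. Peak lists hold no expression values, so the labelled stage and tissue could not be checked against markers. Each list is also an average over all cells of the animal, so a site bound in few cells and a site bound weakly in many cannot be told apart.

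Cyclins bind CDKs and switch them on, and different pairs act at different steps of the division cycle. Cyclin D with CDK4 and cyclin E with CDK2 carry cells through G1 into DNA replication, CDK inhibitors of the Cip/Kip family hold cells in G1, and cyclin B with CDK1 drives mitosis. In C. elegans larvae, cki-1 is known for keeping blast cells at rest in G1. The 7 genes that act in G1 were therefore cyd-1 (cyclin D), cdk-4, cye-1 (cyclin E), cdk-2, the inhibitor genes cki-1 and cki-2, and fzr-1, which encodes the Cdh1 activator of the anaphase-promoting complex (APC/C). The 3 mitotic genes were cdk-1 and the B-type cyclin genes cyb-1 and cyb-3.

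Bases around the summits are shown for 7 of the 12 optimal peaks assigned to these genes, all upstream of the gene's 5′ end. The peaks of cye-1 and cdk-2 and the weaker peaks of fzr-1 and cdk-1 are not printed. Each line holds 101 bases of WBcel235 (ce11) on the plus strand with the summit at base 51, and capitals mark matches to short words that were searched on both strands. The words GAGAGA, then ACGCAG, and last ACCGTA came from earlier results on these lists. The E2F-type words, after the factors that switch on genes for DNA replication, were TTTCCCGC or TTTCGCGC or TTTGCCGC or TTTGGCGC. The words of the cell cycle genes homology region (CHR), known from promoters of mammalian mitotic genes, were TTTGAA in one form and TTCGAA in another. The mitotic promoters come first, then cdk-4 and cki-2, then the upstream summits of cki-1 and fzr-1.
cyb-1, chrIV:10734662-10734762: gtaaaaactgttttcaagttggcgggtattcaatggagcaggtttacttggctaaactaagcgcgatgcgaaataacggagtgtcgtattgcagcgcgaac
cdk-1, chrIII:9747295-9747395: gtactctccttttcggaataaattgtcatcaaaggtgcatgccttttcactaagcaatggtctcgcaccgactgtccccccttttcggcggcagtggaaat
cyb-3, chrV:15395065-15395165: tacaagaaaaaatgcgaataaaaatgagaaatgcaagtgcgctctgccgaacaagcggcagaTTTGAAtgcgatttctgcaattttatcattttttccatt
cdk-4, chrX:13519320-13519420: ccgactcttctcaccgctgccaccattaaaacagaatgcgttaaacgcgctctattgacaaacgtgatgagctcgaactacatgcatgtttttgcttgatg
cki-2, chrII:7816284-7816384: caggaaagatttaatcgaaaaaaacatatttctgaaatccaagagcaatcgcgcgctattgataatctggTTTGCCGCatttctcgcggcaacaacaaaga
cki-1, chrII:7809226-7809326: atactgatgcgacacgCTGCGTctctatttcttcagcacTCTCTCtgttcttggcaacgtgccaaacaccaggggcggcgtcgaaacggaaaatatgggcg
fzr-1, chrII:9646213-9646313: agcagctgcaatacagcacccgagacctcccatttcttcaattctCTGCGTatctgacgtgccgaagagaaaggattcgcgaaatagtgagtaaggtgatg

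On ce11 the optimal list of the authors held 6312 peaks. Each has a score that is the authors' own value (lowest 58.0, median 123, highest 20472), on a scale that is not given in the sources used here, and it serves here to rank and describe peaks within a list. The relaxed list of each replicate held 30000 peaks. No read counts were in these files, so the depth of the libraries is unknown. A summit was assigned to a gene when it lay between 5000 bp upstream of the gene's 5′ end and the gene's other end. Promoter here means the bases between 1000 bp before and 200 bp after the 5′ end. A summit in a replicate's list matched another when they lay within 200 bp. The members were named with earlier results of these lists known, so counts are given beside those of all protein-coding genes and without a test.

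Of the 10 genes, 9 had at least 1 optimal summit in this window, and cyd-1 had none. Over all protein-coding genes 7312 of 19973 (36.6%) had one. The 9 genes held 12 summits, and cye-1, fzr-1 and cdk-1 held 2 each, where 13.9% of all genes held 2 or more. The members' windows ran from 5866 bp at cki-1 to 17527 bp at cyd-1. The share of all genes with a summit was 29.1% for windows of 6000 to 7000 bp, the class of cdk-1, cyb-1 and cyb-3, and 59.5% for windows of 12000 bp or longer, the class of cyd-1. In the Ensembl annotation used here, the gene without a summit was thus the one with the longest window.

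**Figure D1:**
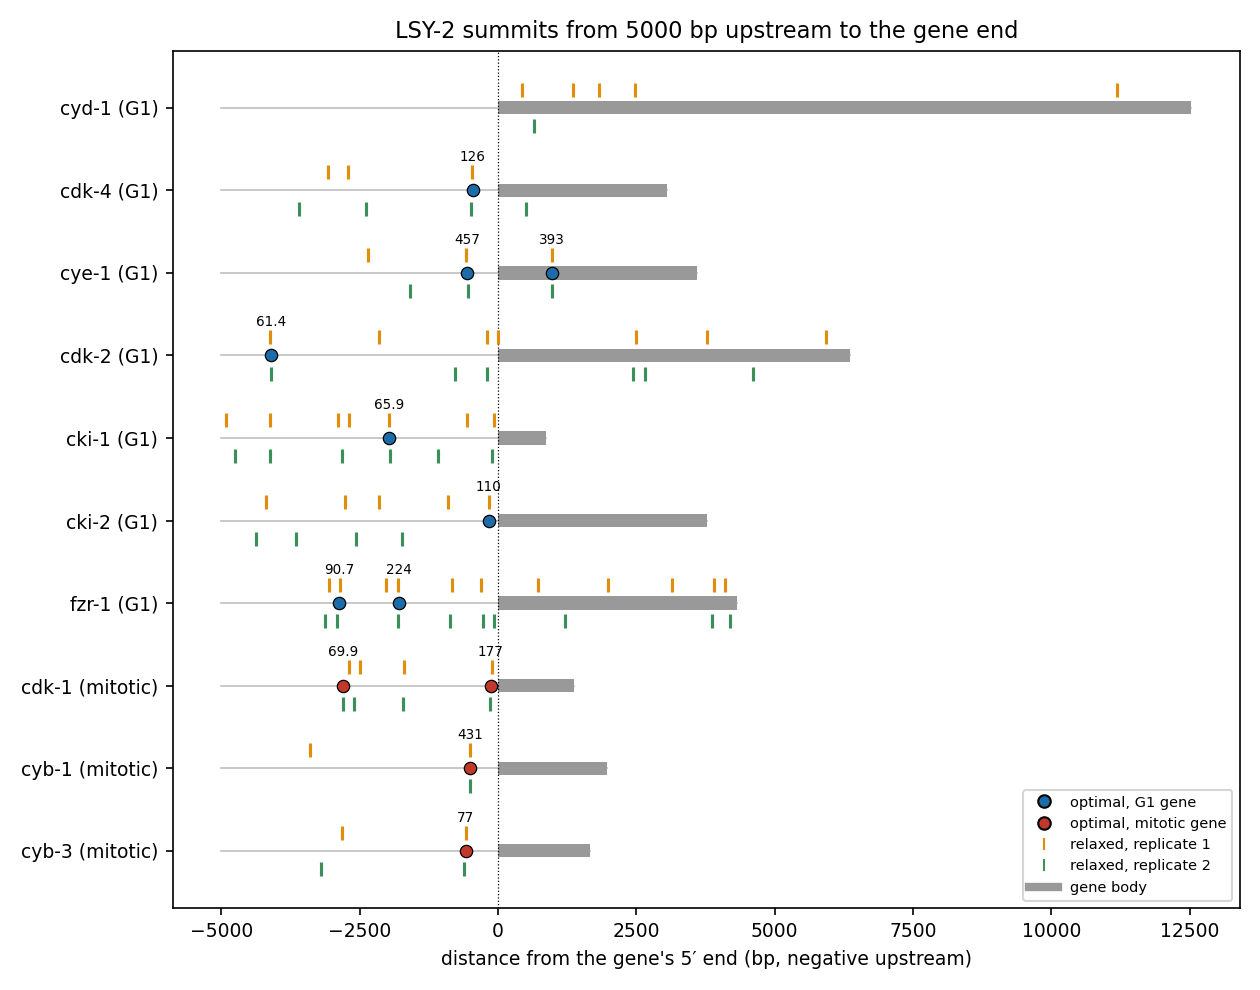
Positions of LSY-2 summits at the 10 genes; the x axis gives the distance from the gene's 5′ end in bp, circles are optimal summits with the authors' score above them, grey bars are gene bodies, and ticks are relaxed summits of replicate 1 (above the line) and replicate 2 (below it). Of the 12 optimal summits 11 lie upstream of the 5′ end, and the summit at +976 bp in cye-1 is the exception. The 5000 bp upstream are longer than the gene body of every member except cdk-2 and cyd-1. The share of summits upstream over all genes was not counted.

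The promoters of 6 genes held an optimal summit, where the share over all protein-coding genes was 19.2%. These were all 3 mitotic genes, cdk-1, cyb-1 and cyb-3, and 3 of the 7 G1 genes, cdk-4, cye-1 and cki-2. This split depends on the 1000 bp limit. The summits of cyb-1 (504 bp), cyb-3 (581 bp) and the G1 gene cye-1 (562 bp) lay more than 500 bp upstream. In the wider window, 3 of 3 mitotic genes and 6 of 7 G1 genes had a summit. The mitotic windows held 4 optimal summits in 20001 bp (2.00 per 10000 bp) and the G1 windows 8 in 69498 bp (1.15 per 10000 bp). Over the windows of all genes the density was 0.704. Per gene the groups were closer, with 1.33 optimal summits for mitotic and 1.14 for G1 genes, beside 0.579 over all genes. The 5000 bp upstream are the same for every gene, so the densities also depend on the length of the gene bodies. With the G1 group reduced to its cyclin and CDK genes, it held 4 summits and a density of 0.878. The contrast between the groups rests on 3 and 7 genes and was not tested.

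**Figure D2:**
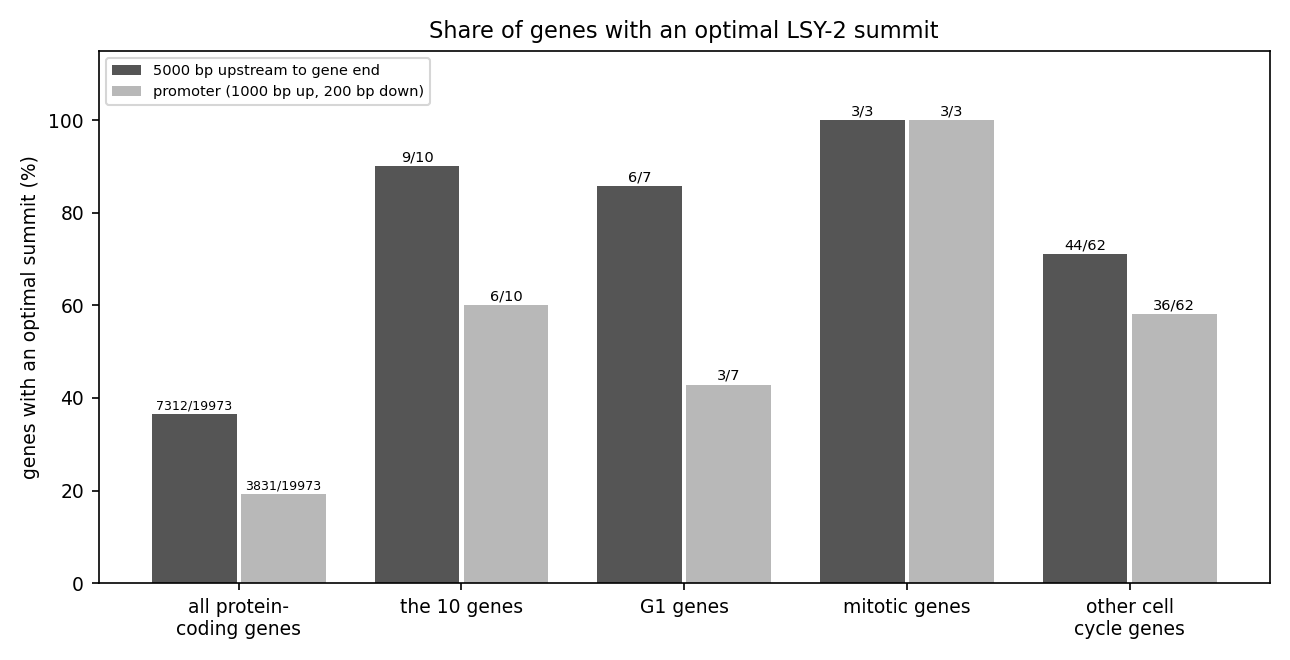
Share of genes with an optimal summit, in percent, for all protein-coding genes, the 10 genes, the G1 and mitotic genes and 62 other cell cycle genes; dark bars are the window from 5000 bp upstream to the gene end, light bars the promoter, and labels give the counts. All 3 mitotic genes and 3 of 7 G1 genes have a promoter summit, beside 3831 of 19973 genes.

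Among the mitotic genes, cyb-1 (WBGene00000865, chromosome IV 10735216 to 10737177) had the strongest peak. Its summit lay 504 bp upstream, with a score of 431 and rank 712 of the optimal list. It was at rank 652 in replicate 1 and 793 in replicate 2, and the summits of the replicates were 0 and 3 bp from it. The peak lay between cyb-1 and the divergent gene orc-5, which encodes a subunit of the origin recognition complex, and was 124 bp from the 5′ end of orc-5. The 5′ ends of cyb-1 and orc-5 are 628 bp apart, so the peak cannot be told apart as a peak of either gene. The distances from cyb-1 are from its Ensembl 5′ end. The RefSeq annotation starts cyb-1 at 10735442, farther from the peak.

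The gene cdk-1 (WBGene00000405, chromosome III 9747472 to 9748852) encodes the mitotic kinase and had a pair of optimal peaks. The nearer summit lay 127 bp upstream, with a score of 177 and rank 2199, and it also lay in the promoter of iff-1, a gene for a homologue of translation factor eIF5A. Its rank was 1703 in replicate 1 and 3142 in replicate 2. The farther summit, 2794 bp upstream, had a score of 69.9, and it lay within the annotated non-coding RNA gene T05G5.15. It ranked 5854 and 4988 in the replicates, so both replicates placed it below the nearer peak.

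The weakest mitotic peak was that of cyb-3 (WBGene00000868, chromosome V 15395696 to 15397353), with a score of 77.0 at 581 bp upstream. Its replicates were far apart in rank, with 3985 in replicate 1 and 9509 in replicate 2. The peak was 154 bp from the 5′ end of the divergent gene T06E6.1. Of the 3 mitotic genes, the order cyb-1, cdk-1, cyb-3 was the same in the pooled list and in each replicate.

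In G1, cyclin E gene cye-1 (WBGene00000871, chromosome I 6780799 to 6784397) had the highest scores of the 10 genes. One summit lay 562 bp upstream with a score of 457, at rank 658 of the optimal list, 644 in replicate 1 and 677 in replicate 2. It was 86 bp from the 5′ end of the divergent gene pqn-21. The other lay 976 bp inside the gene, in an intron, with a score of 393 and ranks of 765 and 829 in the replicates. That intronic summit was 28 bp from an annotated tRNA gene (WBGene00022955, chromosome I 6781803 to 6781874). Both cye-1 peaks and the cyb-1 peak thus ranked among the strongest 829 in each replicate, and no other peak of the 10 genes ranked above 1616.

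The kinase partner of cyclin E, cdk-2 (WBGene00019362, chromosome I 3410013 to 3416368), had the weakest optimal peak of the 9 genes. Its score was 61.4, close to the lowest score of the list. The summit lay 4107 bp upstream, in an intron of the neighbouring gene W05F2.4 and 27 bp from the non-coding RNA gene K03E5.6. It ranked 11644 in replicate 1 and 4464 in replicate 2. Near the cdk-2 gene itself, matched relaxed summits lay 200 bp upstream (pooled score 46.5) and 2499 bp downstream of its 5′ end, in a cdk-2 intron (pooled score 56.5), both below the lowest optimal score.

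The cyclin D and CDK4 genes differed from each other. The window of cyd-1 (WBGene00000870, chromosome II 12980591 to 12993117) held 5 relaxed summits in replicate 1 and 1 in replicate 2, and none matched within 200 bp. The closest pair was 211 bp apart. The nearest optimal summit was 15794 bp from the Ensembl 5′ end, with a score of 121, and its nearest gene was hphd-1. The RefSeq annotation starts cyd-1 at 12988223, nearer to that summit, and its window is then shorter than the 11356 bp of cdk-2. With RefSeq gene ends the count also stayed at 0. In contrast, cdk-4 (WBGene00000406, chromosome X 13515856 to 13518911, minus strand) had a summit 459 bp upstream with a score of 126. Its ranks were 3135 and 3674 in the replicates, and it was 293 bp from the 5′ end of the divergent gene F18H3.1.

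The CDK inhibitor genes lie in tandem on chromosome II. At cki-1 (WBGene00000516, 7811240 to 7812105) the optimal summit lay 1964 bp upstream, with a score of 65.9, within the non-coding RNA gene T05A6.15. It ranked 6501 in replicate 1 and 5831 in replicate 2. The cki-1 window, the shortest of the 10, held 5 matched pairs of relaxed summits. The strongest pair outside the optimal list lay 4124 bp upstream, with ranks of 9949 and 6438, a pooled score of 50.4 and pooled rank 7178. The next lay 2892 bp upstream with a pooled score of 34.1, and a weak pair lay 73 bp upstream with a pooled score of 17.5. The fifth lay 4912 bp upstream with a pooled score of 9.47. Upstream of cki-1 the matched summits were thus spread over the window, and the pair next to the 5′ end was the second weakest of them.

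At cki-2 (WBGene00000517, 7816499 to 7820281) the optimal summit lay 165 bp upstream, with a score of 110 and rank 3525. Replicate 1 had it at rank 3242 with a score of 68.4, 3 bp away. Replicate 2 listed no summit within 200 bp, and its nearest was 1568 bp away at rank 22855. Of all optimal summits, 60 of 6312 (0.951%) were matched in replicate 1 and not in replicate 2, and 98.6% were matched in both. At the other 11 member summits the optimal score was 0.938 to 1.04 times the sum of the replicates' scores (median 0.997), and the median over all 6222 matched optimal summits was 0.996. The optimal score of cki-2 was well above its score in replicate 1. By the 200 bp match, its peak is an optimal peak with a listed summit in 1 replicate. Without it the count of genes with an optimal summit is 8. Whether replicate 2 had signal there without a listed summit cannot be read from its list.

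The APC/C activator gene fzr-1 (WBGene00001510, chromosome II 9640156 to 9644466, minus strand) had a pair of optimal summits, both nearer to another gene. The stronger, 1797 bp upstream, had a score of 224 and ranks of 1774 and 1616, and it was 715 bp from the 5′ end of sqv-8, which encodes a glucuronosyltransferase of glycosaminoglycan synthesis. The weaker, 2868 bp upstream, had a score of 90.7 and ranks of 3843 and 5035, and lay in an intron of sqv-8. Closer to fzr-1, matched relaxed summits lay 824 bp upstream (pooled score 43.0) and 301 bp upstream (pooled score 28.8), both under the lowest optimal score. The fzr-1 window held 7 matched pairs, the most of the 10.

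**Figure D3:**
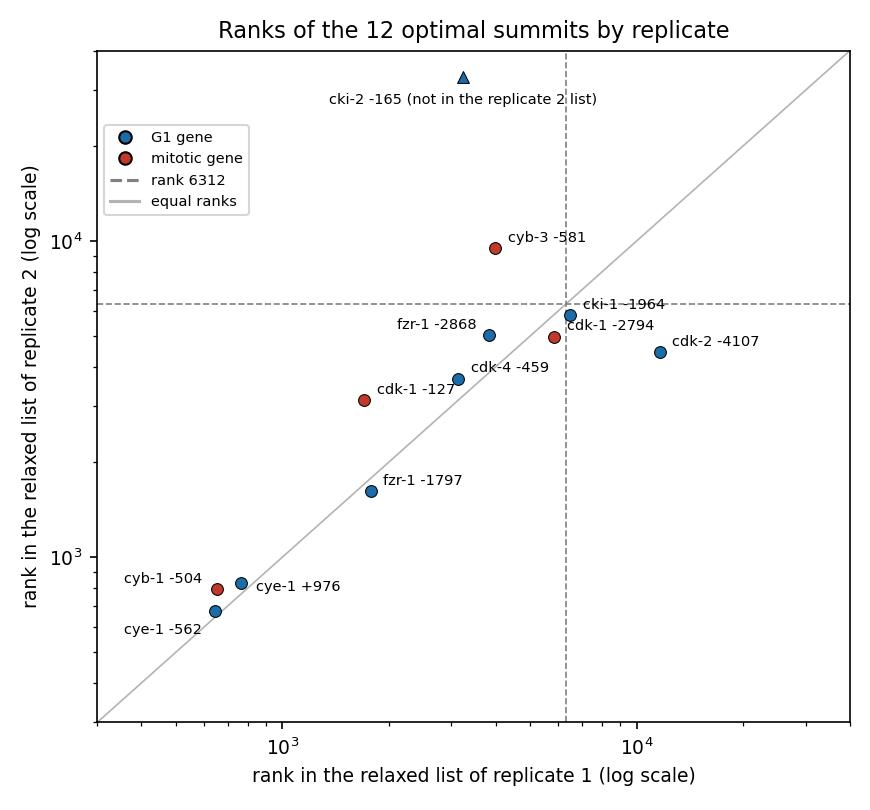
Rank of each of the 12 optimal summits in the relaxed list of replicate 1 (x axis, log scale) and replicate 2 (y axis, log scale), labelled by gene and distance from the 5′ end in bp; dashed lines mark rank 6312, the length of the optimal list, and the solid line equal ranks. The cki-2 summit, a triangle, is drawn above rank 30000 because replicate 2 listed none within 200 bp, and 8 of the 12 lie under rank 6312 in both replicates, beside 77.8% of all optimal summits.

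In both replicates, 8 of the 12 optimal summits ranked at 6312 or better, beside 4910 of all 6312 optimal summits (77.8%), each taken at the nearest relaxed summit of the replicate. Those that did not were the summits of cki-2, cyb-3, cdk-2 and cki-1. Ranks differed by a factor of 2 or more in 2 of the 11 matched summits, cdk-2 (2.61) and cyb-3 (2.39), where 7.89% of all matched optimal summits differed by as much. The cdk-2 summit was higher in replicate 2 and the cyb-3 summit in replicate 1.

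In the relaxed lists, 9 of the 10 genes had a summit of both replicates in the window, beside 49.1% of all protein-coding genes. The G1 windows held 19 such pairs and the mitotic windows 5, which were 2.73 and 2.50 per 10000 bp, beside 1.68 over all genes. Of the 24 pairs, 12 lay away from optimal summits, 11 of 19 at G1 genes and 1 of 5 at mitotic genes. Those 12 lay at cki-1 and fzr-1 (4 each), cdk-2 (2), cki-2 (1) and cdk-1 (1). The whole lists held 16957 pairs beside 6312 optimal peaks, and the share of those pairs away from optimal summits was not counted. The G1 windows covered 69498 bp and the mitotic ones 20001 bp, and this contrast was not tested. At cyb-1, cyb-3, cdk-4 and cye-1 the matched pairs were at the optimal summits alone.

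Most of the peaks were closer to another gene than to the cell cycle gene, as were most window summits over all genes. Of the 12 summits, 8 had their nearest 5′ end at another protein-coding gene. Over all protein-coding genes a window held 0.579 optimal summits on average, of which 0.271 had the gene's own 5′ end nearest. The 4 genes cye-1, cki-1, cki-2 and cdk-1 had a summit whose nearest 5′ end was their own, beside 20.8% of all genes. Of the 6 promoter summits, 5 also lay in the promoter of a neighbour. The neighbours were F18H3.1, pqn-21, iff-1, orc-5 and T06E6.1, and cki-2 was the exception. Of all promoter summits, each counted once, 30.3% lay in more than 1 promoter. These are unlike measures, because the members' summits were reached through genes and a shared summit can be reached through each of its genes. An annotated RNA gene lay within 50 bp of 4 of the 12 summits, those of cye-1 (the intronic one), cdk-2, cki-1 and cdk-1 (the farther one), beside 12.1% of all optimal summits. Of these 4, the cye-1 summit was the strong one and the others had scores from 61.4 to 69.9. No summit of the 10 genes lay in a coding exon, and the share of all optimal summits in coding exons was not counted.

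By the highest score in the window, the order was cye-1 (457), cyb-1 (431), fzr-1 (224), cdk-1 (177), cdk-4 (126), cki-2 (110), cyb-3 (77.0), cki-1 (65.9) and cdk-2 (61.4). Among the 7312 genes with an optimal summit these were at percentiles from 79.3 for cye-1 down to 2.01 for cdk-2. The members' median was 126 and that of all genes with a summit 201, so the genes had optimal summits often and mostly of moderate or low score. In both replicates cye-1 ranked ahead of cyb-1. Other neighbours in this order changed places between the replicates: cdk-1 was ahead of fzr-1 in replicate 1 only, and in replicate 2 cyb-3 fell behind cki-1 and cdk-2. The lower end of the order therefore did not hold between replicates. The G1 median was 118 and the mitotic median 177, and the ranges overlapped.

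**Figure D4:**
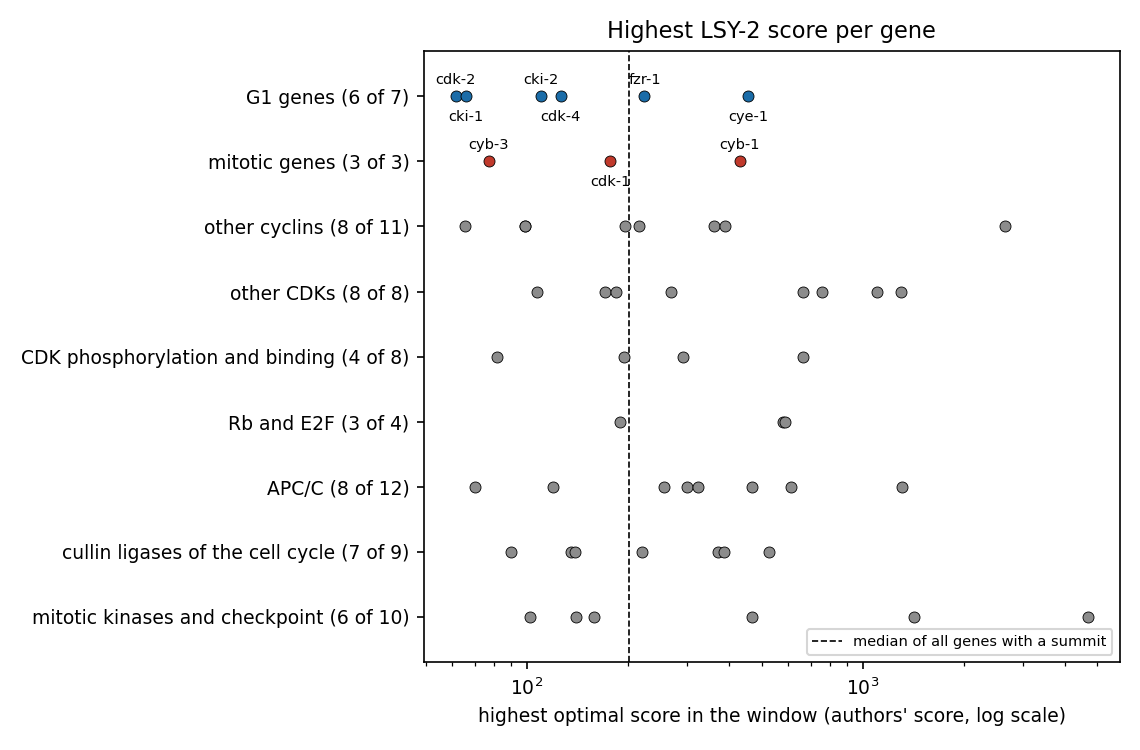
Highest optimal score in the window of each gene (x axis, authors' score, log scale) for the G1 genes, the mitotic genes and 7 groups of other cell cycle genes, with the number of genes that have a summit beside each name; the dashed line is the median of 201 over all genes with a summit. The G1 scores run from 61.4 to 457 and the mitotic ones from 77.0 to 431, on both sides of the line.

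Other genes of the cell cycle machinery were counted in the same way. Of 62, 44 (71.0%) had an optimal summit in the window and 36 (58.1%) in the promoter, with a median highest score of 280. Neighbours in these lists can share a summit, as cit-1.1 and cit-1.2 did (98.8). The 8 other CDK genes all had one, and 7 had it in the promoter. The strongest were at cdk-5, a kinase known from neurons (1304), cdk-11.1 (1106) and the Mediator kinase gene cdk-8 (759), each with its summit within 80 bp of the gene's own 5′ end. These values were above every score of the 10 genes. Of 11 other cyclin genes, 8 had a summit, led by the cyclin K gene ccnk-1 (2649), the cyclin H gene cyh-1 (389) and the cyclin C gene cic-1 (362). The summits of ccnk-1 and cyh-1 had their nearest 5′ end at another gene. The cyclin A gene cya-1 and the other B-type cyclin genes, cyb-2.1 and cyb-2.2, had none, unlike cyb-1 and cyb-3.

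Of the 4 Rb and E2F genes, efl-1 (589), the retinoblastoma gene lin-35 (580) and the DP gene dpl-1 (189) had a promoter summit and efl-2 had none. Of 12 APC/C genes, 8 had a summit, led by mat-1 (1311), emb-30 (610) and emb-1 (467), and all 3 of these summits had their nearest 5′ end at another gene. The group of genes that modify or bind CDKs had a summit in 4 of 8 cases, with the Myt1-type kinase gene wee-1.3 (663), the phosphatase gene cdc-14 (291) and cks-1 (195) strongest, although the cks-1 summit had its nearest 5′ end at mes-6. Of the 4 cdc-25 phosphatase genes, which remove the inhibitory phosphates from CDKs, only cdc-25.3 had one (81.3). Among 9 cullin ligase genes 7 had a summit, with rbx-1 (525), lin-23 (386) and sel-10 (371) strongest. Among 10 genes of mitotic kinases and the spindle checkpoint 6 had one, with the securin gene ify-1 (4694), mdf-1 (1420) and mdf-2 (467) strongest, and the mdf-1 summit had its nearest 5′ end at the histone gene his-37.

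No searched word was common to the members' summits. An E2F-type word was in 2 of the 12 summit windows, upstream of cye-1 and at cki-2 (bases 71 to 78 of the printed sequence), and in 3.69% of all optimal summit windows. GAGAGA was in 3 of 12, upstream of cye-1, at cki-1 and at the weaker fzr-1 summit, which is not printed, beside 27.1% of all. ACGCAG was in 2 of 12, at cki-1 and the stronger fzr-1 summit, beside 14.6%. ACCGTA was in 0 of 12, which allows a share of up to 25%, beside 6.88%. That limit is a rough one, 3 divided by 12. It treats the windows as independent and drawn at random, though the genes were chosen by name and some windows share a gene. A CHR-type word was in 1 of 12, at cyb-3, beside 21.8%. No printed word overlapped another. The windows of cyb-1, cdk-1, cdk-4 and cdk-2 and the intronic window of cye-1 held none of these words. The GC content of the 12 windows ran from 35.6% at cyb-3 to 55.4% upstream of cye-1, with a median of 46.0% beside 43.6% over all optimal summits.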

How the data were processed

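LSY-2 ChIP-seq peak lists of 2 biological replicates were used. Relaxed lists of each replicate and of the pooled replicates, and an optimal list made from them by irreproducible discovery rate (IDR), were deposited by the authors, per the labels and file descriptions. Aligner, peak caller and IDR threshold are not given in the sources used here. Deposited peak scores are the authors' values on an unstated scale. The deposited −log10 q-value was 4.26 for every optimal peak and was not used. Positions are on ce11, the assembly WBcel235. Summits were taken as column 2 plus column 10 and are printed 1-based. Genes came from Ensembl release 115, and sequences from the RefSeq genome of the same assembly, in which the annotated coding starts of 10 of 10 members read ATG. Counts were made in Python 3.11.15 with pandas 2.3.3 and numpy 2.4.6, and the counting functions were tested on simulated data. No test was made. The members, the gene lists and the searched words were chosen with earlier results of these data known. All 10 members are named, with up to 3 genes of highest score in each group of other cell cycle genes and the gene nearest to each member's summit. Other names (cit-1.1, cit-1.2, cya-1, cyb-2.1, cyb-2.2, efl-2, cdc-25.3, and the neighbours of other cell cycle genes) were chosen after their values were seen. Each replicate alone, stricter lists, other windows, nearest-gene assignment and RefSeq gene ends were tried as alternatives.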

Additional observations from a re-analysis of the deposited data

How the results depend on the processing

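Of 52 alternative values for the 6 counts, 39 stayed within 1.5 times. For each replicate alone, its relaxed list was cut to the strongest 6312 peaks. Without replicate 1, 7 of the 10 genes had a summit (36.9% of all genes), and cki-2 and cyb-3 were lost. Without replicate 2, 7 genes had one (37.5% of all genes), and cdk-2 and cki-1 were lost. The cut removed cyb-3 (rank 9509 in replicate 2), cdk-2 (rank 11644 in replicate 1) and cki-1 (rank 6501 in replicate 1). The genes with a summit fell from 9 to 5 with the strongest 50% of the optimal list (25.7% of all genes) and to 5 with optimal peaks among the strongest of both replicates (33.0%), and they were cdk-4, cye-1, fzr-1, cdk-1 and cyb-1 in each case. With the nearest 5′ end only, 4 genes had a summit (20.8% of all genes), 2 had one in the promoter (14.5%) and 29 of the other cell cycle genes had one. The G1 summits fell from 8 to 4 (strongest 50%), 5 (strongest of both replicates), 3 (nearest 5′ end) and 4 (cyclins and CDKs only). The mitotic summits fell from 4 to 2 (strongest 50%) and 1 (nearest 5′ end). With a promoter of 500 bp upstream to 100 bp downstream, 3 genes had a promoter summit (15.2% of all genes). They were the mitotic gene cdk-1 and the G1 genes cdk-4 and cki-2, so the mitotic genes cyb-1 and cyb-3 and the G1 gene cye-1 were lost. Within the strongest peaks of each replicate, 5 genes had a matched pair (33.4%). RefSeq gene ends and the list without peaks missing from a replicate were chosen after seeing the data. They gave 9 genes (36.5% of all genes) and 8 genes (36.3%). The stricter lists and narrower windows hold fewer summits by construction. No paired analysis was possible because there was 1 group.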
